A study of Arabidopsis thaliana with 18 samples.

Results

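Root hair cells that overexpress the trihelix factor GTL1 were set against root hair cells that overexpress its relative DF1, in Arabidopsis thaliana. The comparison took the 3 arrays labelled GTL1ox and the 3 labelled DF1ox, which are 6 of the 18 ATH1 arrays of the series, and all 22746 probe sets other than the Affymetrix controls. No probe set was chosen by its value. In GTL1ox the promoter of the expansin gene EXPA7 (EXP7), which is active in root hair cells, drove GTL1 fused to green fluorescent protein, and in DF1ox it drove DF1 fused to the same protein. In wild type (WT), whose 3 arrays are given beside both lines, this promoter drove a nuclear form of the fluorescent protein alone. All of these plants were in the Columbia-0 background and 5 days old, the overexpressors kept their own GTL1 and DF1 genes, and no treatment was given. Protoplasts were made from roots and the fluorescent ones sorted, so that in both overexpressors the sorted signal was the fusion protein itself. The methods describe the samples of a line as biological replicates. How many transgenic lines were used and whether the replicates were planted separately is not given in the sources used here.

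Root hairs are tubular outgrowths of epidermal cells that extend at the tip and take up water and nutrients. Their growth is promoted by bHLH factors and by auxin, and it ends when the growth programme is shut down. GTL1 and DF1 belong to the trihelix family of DNA-binding proteins, and act as repressors of root hair growth. The comparison asks how the transcriptomes of cells with much GTL1 and with much DF1 differ.

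Values are log2 gcRMA signals, and a difference of 1 is a 2-fold change. The 6 arrays were close to each other within a line, with correlations across probe sets of 0.9960 to 0.9965 in GTL1ox and 0.9964 to 0.9972 in DF1ox, against 0.978 to 0.983 between the lines. Of the probe sets, 47.8% were dim on all 6 arrays, that is, within 2-fold of the lowest value, 2.22. Where every array of the dimmer line lay in that range, a difference is given as at least its size. Precision is limited by the number of arrays. Fewer cells of a type and less RNA per cell cannot be told apart in sorted pools. Control transcripts of bacterial or phage origin added before hybridisation differed between the lines without overlap. BioC was at 6.97 ± 0.05 in GTL1ox, 8.07 ± 0.17 in DF1ox and 7.20 ± 0.17 in WT (SD, n = 3), and BioB, BioD and Cre were higher in DF1ox as well. The difference between 3′ and 5′ control probe sets, which rises with RNA degradation, was 1.79 ± 0.09 in GTL1ox, 1.96 ± 0.07 in DF1ox and 1.99 ± 0.20 in WT. The part of these in the results was not tested.

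Of the 22746 probe sets, 4667 (20.5%) were called, that is, they differed between GTL1ox and DF1ox at an adjusted p under 0.05 in limma with the Benjamini-Hochberg adjustment. Higher in GTL1ox were 2980 (13.1%) and lower 1687 (7.42%), so that 63.9% of the calls were higher. This split was 59.2% higher when the arrays were centred on their medians and 56.2% higher after quantile normalization. More than 2-fold were 811 higher (3.57%) and 660 lower (2.9%). At larger sizes the lower side led, with 11 probe sets higher and 26 lower by more than 16-fold. Among the probe sets changed by more than 2-fold, all DF1ox arrays were near the lowest value for 144 of those higher in GTL1ox, and all GTL1ox arrays were near it for 68 of those lower. The arrays of the lines did not overlap for 7051 probe sets (31.0%), among them 4517 of the 4667 called.

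**Figure D1:**
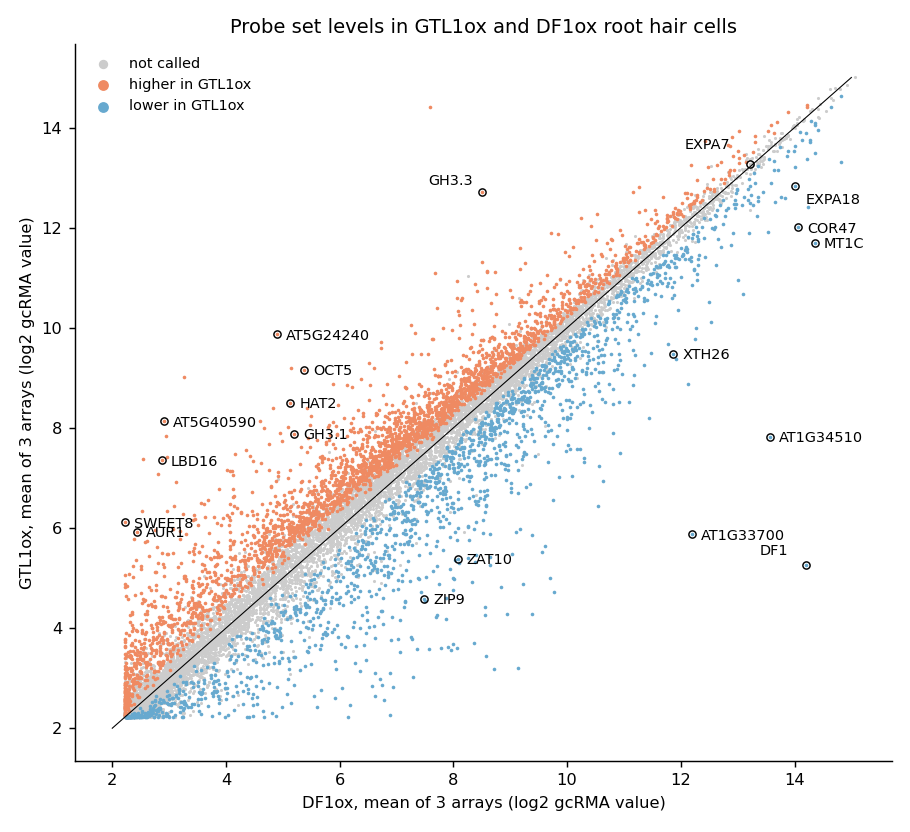
Mean log2 gcRMA value in GTL1ox (vertical axis) against DF1ox (horizontal axis) for all 22746 probe sets, each the mean of 3 arrays, with the line of equality. Orange points were called higher in GTL1ox (2980), blue points lower (1687) and grey points were not called. DF1 lies farthest below the line at a difference of -8.96, GH3.3 and AT5G24240 lie well above it and EXPA7 lies close to it.

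Of the genes overexpressed here, DF1 was read, and its symbol was assigned from its locus, AT1G76880. DF1ox overexpresses this gene, so that a large difference between the lines was built into the comparison. DF1 was at 4.83, 5.39 and 5.53 in GTL1ox, against 14.30, 14.09 and 14.24 in DF1ox and 7.23, 7.26 and 7.57 in WT. All DF1ox arrays lay far above WT and all GTL1ox arrays below WT, and GTL1ox was lower than DF1ox by 8.96 ± 0.32 (SE, adjusted p = 1.57e-09), or 496-fold. Neither GTL1 nor RSL4, a bHLH factor of root hair growth, could be matched to a probe set by name. Unlike DF1, they were not assigned from their loci. The level of GTL1 in its own overexpressor was therefore not read here. Of the 4 trihelix factors measured, DF1, which DF1ox overexpresses, and GT2 were called lower in GTL1ox, beside 7.42% of all probe sets. GT-1 did not pass the test (0.15 ± 0.13, adjusted p = 0.571), and PTL lay at the lowest value on all arrays. GT2 was at 6.12, 6.54 and 6.90 in GTL1ox, 7.69, 7.42 and 7.10 in DF1ox and 8.88, 9.13 and 8.69 in WT, a difference between the overexpressors of -0.88 ± 0.20 (adjusted p = 0.00604). The groups did not overlap, and both overexpressors lay below WT. The call on GT2 was lost in the fit of only the 6 arrays (adjusted p = 0.125) and of the 9 arrays with WT (adjusted p = 0.0615).

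EXPA7, an expansin gene, marks root hair cells. Its promoter drove the fluorescent protein on which the cells of each line were sorted, so that EXPA7 is not an independent marker here. EXPA7 was at 13.20, 13.29 and 13.34 in GTL1ox, 13.15, 13.31 and 13.19 in DF1ox and 13.14, 13.14 and 13.10 in WT, with a difference of 0.06 ± 0.06 (adjusted p = 0.733). Of the 10 root hair markers listed, EXPA7 and EXPA18 could be matched, and both were above 12 on the log2 scale on every array of the lines. EXPA18 was nevertheless called lower in GTL1ox, with a difference of -1.17 (adjusted p = 1.03e-08), so that the matched markers did not behave alike. A gene of a list counts as measured here where a probe set could be matched to it by name, which the annotation used allowed for few genes, so that an unmatched gene may still have a probe set on the array. LHW, a factor of the stele, was the matched member of the stele list and lay between 2.32 and 2.36 in GTL1ox and between 2.36 and 2.86 in DF1ox. Of the non-hair epidermis, root cap, cortex, endodermis, stem cell niche and photosynthetic tissue lists, 0 members could be matched by name, and these cell types were therefore not assessed. TRY and JKD, factors that act in epidermal patterning, lay at or near the lowest value in both overexpressors.

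The auxin-inducible genes that were called were higher in GTL1ox. This list was chosen with earlier results of these data known, and 10 of its 41 names could be matched, so its counts are a description only. Of 10 measured, 7 were called higher and 0 lower, beside 13.1% and 7.42% of all probe sets, with a median difference of 0.63, beside 0.00 over all probe sets. The mean over the 10 genes was 7.64 ± 0.08 in the GTL1ox arrays, 5.93 ± 0.07 in the DF1ox arrays and 5.46 ± 0.17 in the WT arrays (SD, n = 3), and the lines did not overlap.

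GH3.3 encodes an enzyme that joins auxin to amino acids. It was at 12.80, 12.58 and 12.75 in GTL1ox, 8.51, 8.66 and 8.34 in DF1ox and 6.81, 7.22 and 6.85 in WT, which placed DF1ox between GTL1ox and WT. GTL1ox exceeded DF1ox by 4.21 ± 0.27 (adjusted p = 2.74e-07), or 18.5-fold. GH3.1, of the same family, showed the same order, at 8.21, 7.83 and 7.62 in GTL1ox, 5.67, 4.84 and 5.08 in DF1ox and 3.05 ± 0.05 in WT (mean and SD, n = 3, difference 2.69 ± 0.29, adjusted p = 2.30e-05). Another member, WES1 (GH3.5), did not pass the test (0.33 ± 0.50, adjusted p = 0.868).

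LBD16, a transcription factor that acts downstream of auxin in lateral root initiation, was at 7.35 ± 0.33 in GTL1ox (mean and SD, n = 3). In DF1ox it was at 2.87 on each array, and in WT at 2.97, 2.91 and 2.90, so that signal well above the lowest value was seen in GTL1ox alone among these lines. The difference was at least 4.48 (adjusted p = 2.60e-10). Its relative LBD29 differed by at least 0.31, at 2.42, 2.65 and 2.52 in GTL1ox and 2.22 on all DF1ox arrays, and so was dim in both lines. HAT2, an auxin-inducible homeodomain-leucine zipper factor, was at 8.63, 8.37 and 8.50 in GTL1ox, 5.13, 5.12 and 5.13 in DF1ox and 4.88, 5.94 and 6.09 in WT, a difference of 3.37 ± 0.27 (adjusted p = 1.55e-06). DF1ox and WT overlapped and GTL1ox stood apart.

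The other auxin-inducible genes differed less. XTH19, which encodes a xyloglucan-modifying wall enzyme, was at 13.19, 13.27 and 13.31 in GTL1ox and 12.64, 12.65 and 12.61 in DF1ox, a difference of 0.62 ± 0.18 (adjusted p = 0.0266). Leaving out any of these 6 arrays gave it an adjusted p of 0.0540 to 0.0795. IAA29, of the Aux/IAA repressors of auxin signalling, was higher by at least 0.59, while the other 6 Aux/IAA genes measured did not pass the test. Among them IAA30 was at 11.68, 11.53 and 11.80 in GTL1ox, 11.25, 11.05 and 10.80 in DF1ox and 9.62, 10.20 and 9.67 in WT (difference 0.64 ± 0.27, adjusted p = 0.140).

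Aurora kinases, which act in chromosome segregation at mitosis, were higher in GTL1ox as well. AUR1, the measured member of the list of dividing-cell markers, was at 6.03, 5.79 and 5.96 in GTL1ox, 2.43 on each DF1ox array and 2.43, 2.43 and 3.60 in WT, a difference of at least 3.50 (adjusted p = 2.63e-07). AUR3 was at 4.22, 4.25 and 4.37 in GTL1ox and 2.61 on each DF1ox array, a difference of at least 1.67. The other kinase, AUR2, lay near the lowest value in both lines, as did the 2 remaining genes of the mitotic list, BUBR1 and PRL. ASF1B, a histone chaperone used when chromatin is copied, was at 5.51, 5.55 and 5.74 in GTL1ox, 3.37, 3.50 and 3.44 in DF1ox and 3.05, 3.72 and 5.10 in WT (difference 2.16 ± 0.38, adjusted p = 0.00108). Of 8 histone genes measured, 6 did not pass the test and 2 H2B genes were called lower, HTB11 by 1.11 and HTB4 by 0.79, beside 7.42% called lower over all probe sets. The call on HTB4 was lost in the fit of the 9 arrays with WT (adjusted p = 0.102). SIM, a cyclin-dependent kinase inhibitor that promotes endoreduplication, was at 7.47, 8.20 and 8.27 in GTL1ox, 9.28, 9.35 and 9.09 in DF1ox and 9.94, 10.31 and 10.07 in WT, so that GTL1ox was lower than DF1ox by 1.26 ± 0.22 (adjusted p = 0.000926) and DF1ox lay below WT. The part of dividing cells in the auxin and Aurora differences was not tested.

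**Figure D2:**
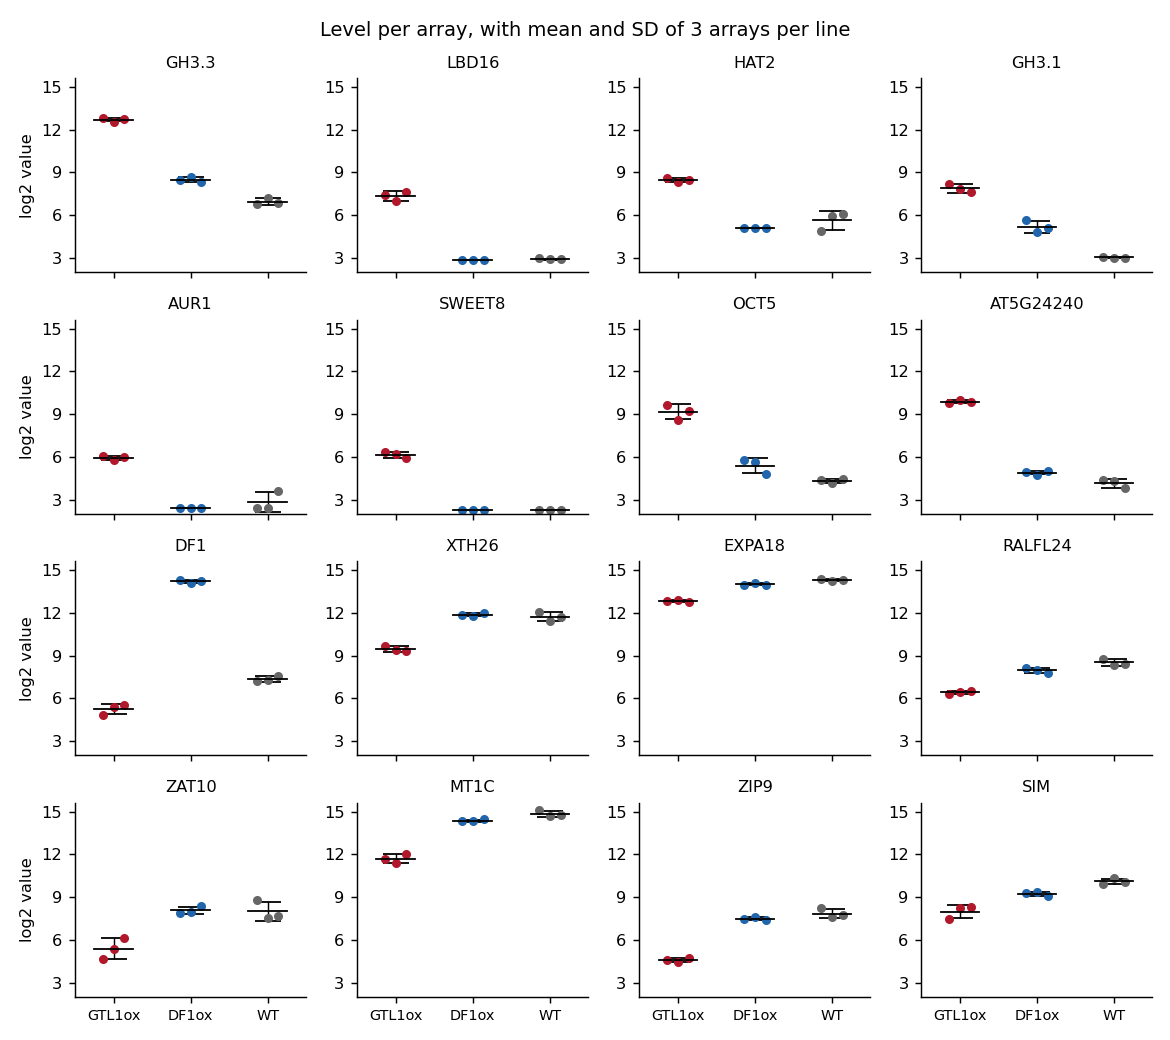
Log2 gcRMA value (vertical axis) of 16 genes on each array of GTL1ox (red), DF1ox (blue) and WT (grey), with the mean and SD of 3 arrays. GH3.3 and GH3.1 fall in steps across the lines, LBD16 and SWEET8 stand above the dim range in GTL1ox only, and XTH26, EXPA18, ZAT10, MT1C and ZIP9 are lower in GTL1ox than in both DF1ox and WT.

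Several of the strongest rises were in genes that the annotation used here leaves unnamed. AT5G24240 was at 9.78, 9.98 and 9.86 in GTL1ox, 4.94, 4.75 and 4.99 in DF1ox and 4.35, 4.29 and 3.79 in WT, a difference of 4.98 ± 0.15. AT5G40590, at 8.15, 8.06 and 8.19 in GTL1ox and 2.91 ± 0.20 in DF1ox (mean and SD, n = 3), differed by at least 5.22, the largest rise among probe sets with 1 gene. In both, the 3 arrays of GTL1ox lay close together and far from the other lines. AT2G38240, AT1G60750 and AT5G09700 were dim in DF1ox and higher in GTL1ox by at least 4.89, 4.45 and 3.81, and AT1G61590 and AT5G05220 were higher by 3.78 and 3.58.

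Class III peroxidases, which cross-link or loosen wall polymers, held 2 rises and 0 falls among 7 measured (28.6% called, beside 20.5% of all probe sets). AT5G66390, a peroxidase by its annotation, was at 8.90, 8.67 and 10.03 in GTL1ox, 4.46, 5.13 and 5.85 in DF1ox and 6.07, 6.74 and 7.62 in WT, so that DF1ox lay below WT and GTL1ox above it. The overexpressors differed by 4.05 ± 0.45 (adjusted p = 2.88e-05). AT5G64120, another, was at 5.47, 5.35 and 5.60 in GTL1ox and 2.92, 2.92 and 3.11 in DF1ox, a difference of at least 2.49.

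Transporters were found on both sides. SWEET8, of the SWEET sugar transporters, was at 6.31, 6.16 and 5.88 in GTL1ox and 2.23 on every array of DF1ox and WT, a difference of at least 3.89 (adjusted p = 2.34e-12). It was the 1 called of 16 SWEET genes measured (6.25%, beside 20.5% of all probe sets), of which 10 were dim on all 6 arrays. OCT5, of the organic cation and carnitine transporters, was at 9.62, 8.60 and 9.24 in GTL1ox, 5.74, 5.60 and 4.78 in DF1ox and 4.34, 4.14 and 4.43 in WT (difference 3.78 ± 0.48, adjusted p = 8.75e-05). ZIP9, of the zinc and iron transporter family, went the other way, at 4.55, 4.45 and 4.74 in GTL1ox, 7.48, 7.57 and 7.42 in DF1ox and 8.23, 7.58 and 7.71 in WT, a fall of 2.91 ± 0.16 (adjusted p = 7.74e-08). MT1C, a metal-binding metallothionein, was at 11.68, 11.38 and 12.03 in GTL1ox, 14.32, 14.30 and 14.45 in DF1ox and 15.09, 14.68 and 14.73 in WT, a difference of -2.66 ± 0.14 (adjusted p = 3.68e-08), with GTL1ox far from the other lines.

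Apart from DF1, which DF1ox overexpresses by design, the strongest falls in GTL1ox were again in genes the annotation used here leaves unnamed. AT1G33700 was at 4.75, 5.80 and 7.06 in GTL1ox, 12.20, 12.21 and 12.18 in DF1ox and 13.23, 12.81 and 12.86 in WT, or 80.1-fold lower in GTL1ox than in DF1ox. AT1G34510 was at 7.57, 7.77 and 8.14 in GTL1ox, 13.51, 13.69 and 13.48 in DF1ox and 14.22, 13.64 and 13.83 in WT, or 53.3-fold lower. In both, all GTL1ox arrays lay far below the DF1ox and WT arrays. AT1G59850, AT2G03980, AT1G56210, AT2G34330, AT2G25450, AT1G72140 and AT5G26080 differed by between -5.10 and -4.01 without overlap. AT1G71000 differed by -3.98, with DF1ox above WT. AT5G59080 was at 2.22 on all GTL1ox arrays, at 6.16, 5.92 and 6.36 in DF1ox and at 4.66, 2.30 and 2.36 in WT, and was lower in GTL1ox by at least 3.92.

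Wall genes of the root hair fell in part. Of 35 names listed, 4 could be matched. Of these 4, XTH26 and EXPA18 were called lower in GTL1ox, beside 7.42% of all probe sets, and EXPA7 and CSLD2 did not pass the test. XTH26, a xyloglucan endotransglucosylase/hydrolase of root hairs, was at 9.69, 9.42 and 9.31 in GTL1ox, 11.87, 11.74 and 11.98 in DF1ox and 12.07, 11.43 and 11.68 in WT, a fall of 2.39 ± 0.19 (adjusted p = 1.42e-06). EXPA18, an expansin that loosens the wall, was at 12.81, 12.92 and 12.77 in GTL1ox, 13.96, 14.08 and 13.98 in DF1ox and 14.34, 14.21 and 14.29 in WT, a fall of 1.17 ± 0.05 (adjusted p = 1.03e-08). For XTH26 the arrays of DF1ox and WT overlapped, and for EXPA18 DF1ox lay just below WT. CSLD2, a cellulose synthase-like gene needed for the hair wall, was at 12.50, 12.40 and 12.30 in GTL1ox and 12.37, 12.40 and 12.46 in DF1ox (difference -0.01 ± 0.09). EXPA18 was the called member among 19 expansins (5.26%, beside 20.5% of all probe sets), of which 11 were dim on all 6 arrays.

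Signalling genes of tip growth followed the same direction where they were called. Of 11 RALF peptides, secreted signals that alter cell expansion, 4 were lower in GTL1ox and 0 higher, beside 7.42% lower and 13.1% higher over all probe sets. RALFL24 was at 6.27, 6.47 and 6.49 in GTL1ox, 8.16, 7.96 and 7.77 in DF1ox and 8.77, 8.37 and 8.41 in WT (difference -1.55 ± 0.14, adjusted p = 6.60e-06). RALFL27 was at 6.64, 7.27 and 7.56 in GTL1ox, 8.26, 8.63 and 7.95 in DF1ox and 10.24, 9.85 and 9.84 in WT, so that both overexpressors lay below WT. It differed by -1.13 ± 0.23 (adjusted p = 0.00362, but 0.104 in the fit of only the 6 arrays). RALFL22 and RALFL33 fell by 0.43 and 0.58, and the call on RALFL33 was lost when any of the 6 arrays except replicate 3 of DF1ox was left out (adjusted p of 0.0749 to 0.149). FER, the receptor kinase FERONIA that binds RALF peptides and is needed for intact root hairs, was at 12.11, 12.03 and 11.89 in GTL1ox, 12.64, 12.58 and 12.60 in DF1ox and 12.43, 12.48 and 12.36 in WT, a small fall of 0.60 ± 0.06 (adjusted p = 6.46e-06). SCN1, which positions hair initiation, differed by 0.03 ± 0.07. RR16, of the type-A regulators that dampen cytokinin responses, was at 3.31, 2.30 and 2.94 in GTL1ox, 3.96, 4.69 and 3.88 in DF1ox and 7.88, 6.61 and 7.03 in WT, so that most of its distance from WT was shared by the overexpressors. Its difference of -1.33 ± 0.42 (adjusted p = 0.0374) was not called in the fit of only the 6 arrays (adjusted p = 0.102) or when any of them except replicate 1 of GTL1ox was left out (0.0516 to 0.143).

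Cytoskeletal genes were called about as often as probe sets at large, 4 higher and 3 lower of 36 (19.4%, beside 20.5% of all probe sets). SP1L4, a SPIRAL1-like protein of cortical microtubules, was at 12.59, 12.61 and 12.61 in GTL1ox, 13.75, 13.76 and 13.77 in DF1ox and 13.63, 13.60 and 13.50 in WT, a fall of 1.16 ± 0.04 (adjusted p = 2.07e-09) with very little spread. PLIM2b, an actin-bundling LIM protein outside that list, was at 10.52, 10.52 and 10.48 in GTL1ox, 12.60, 12.58 and 12.31 in DF1ox and 13.16, 12.98 and 13.02 in WT. TUB7, a beta-tubulin, rose by 1.30 ± 0.19 (adjusted p = 0.000334), at 7.88, 7.64 and 7.84 in GTL1ox, 6.61, 6.36 and 6.49 in DF1ox and 6.99, 7.42 and 8.07 in WT. The TUB7 level in WT overlapped that in GTL1ox, so that DF1ox was the line that lay apart. ATMAP65-6, a microtubule cross-linking protein, rose by 1.13, and the myosin XI-I by 0.98.

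Wall enzymes outside the hair programme moved both ways as well. Of 10 XTH genes, 2 were called higher and 2 lower, beside 13.1% and 7.42% of all probe sets. EXGT-A3 rose by 1.58 ± 0.20 with XTH19, and XTH33 fell with XTH26. XTH33 was at 5.07, 6.16 and 5.46 in GTL1ox, 7.79, 7.94 and 7.70 in DF1ox and 6.52, 6.35 and 6.39 in WT, a difference of -2.25 ± 0.25 (adjusted p = 2.95e-05), with WT between the overexpressors. Of 4 pectin-modifying enzymes, 2 were called lower and 0 higher, beside 7.42% and 13.1% of all probe sets. ATPMEPCRB, a pectin methylesterase, was lower in GTL1ox by 1.91 ± 0.21, at 4.13, 4.03 and 3.81 in GTL1ox, 5.85, 5.80 and 6.03 in DF1ox and 5.04, 4.34 and 4.11 in WT. PMEPCRF, of the same enzymes, was called lower as well but not in the fit of only the 6 arrays (adjusted p = 0.227), and CSLC12, a glucan synthase of xyloglucan, fell by 1.06. Of 23 trichome birefringence-like genes, which act in wall acetylation, 3 were called higher and 3 lower (26.1%, beside 20.5% of all probe sets), led by TBL38 at 1.63 and TBL28 at -2.04. The other 4 calls were lost in the fit of only the 6 arrays (adjusted p of 0.0547 for TBL37, 0.0715 for TBL42, 0.110 for TBL32 and 0.255 for TBL25). TBL32 was also lost without replicate 1 of DF1ox (0.0559) or of GTL1ox (0.0598), and TBL25 when any of the 6 arrays except replicate 3 of DF1ox was left out (0.0584 to 0.156). EXO, a growth gene responsive to brassinosteroid, was at 4.39, 4.19 and 4.19 in GTL1ox, 6.63, 6.51 and 6.02 in DF1ox and 9.33, 7.50 and 8.42 in WT, with DF1ox between GTL1ox and WT (difference -2.13 ± 0.41, adjusted p = 0.00205).

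Among stress-responsive genes, the wound and late embryogenesis abundant genes that were called were lower in GTL1ox. ZAT10, a zinc finger factor induced by wounding and many stresses, was at 4.68, 5.35 and 6.12 in GTL1ox, 7.91, 7.97 and 8.35 in DF1ox and 8.77, 7.55 and 7.70 in WT, a fall of 2.70 ± 0.38 (adjusted p = 0.000233). Of 12 late embryogenesis abundant genes, which protect cells that lose water, 3 were called lower and 0 higher, beside 7.42% and 13.1% of all probe sets. Of these calls COR47 held in every alternative, while LEA18 (-0.30) was lost in the fit of only the 6 arrays (adjusted p = 0.153) and of the 9 arrays with WT (0.0617). COR47, a dehydrin, was at 11.99, 11.48 and 12.56 in GTL1ox, 14.14, 13.88 and 14.16 in DF1ox and 14.15, 13.38 and 13.56 in WT, a fall of 2.05 ± 0.24 (adjusted p = 5.23e-05). LTI30, another dehydrin, did not pass the test (-0.42 ± 0.42, adjusted p = 0.663). LEA4-5 had a different order from most genes, at 9.42, 8.40 and 9.40 in GTL1ox, 10.18, 10.17 and 10.64 in DF1ox and 7.71, 7.24 and 6.99 in WT, so that both overexpressors lay above WT. Its difference of -1.26 ± 0.34 (adjusted p = 0.0190) was not called in the fit of only the 6 arrays (adjusted p = 0.104) or without replicate 3 of DF1ox (0.0761) or replicate 2 of GTL1ox (0.0829). TIL, a temperature-induced lipocalin, fell by 2.22 ± 0.34. Among 7 WRKY factors (42.9% called, beside 20.5% of all probe sets), ZAP1 (0.92) and WRKY22 (at least 1.02) rose and WRKY53 fell by 0.81 (adjusted p = 0.0284), a call that was lost when any of the 6 arrays except replicate 2 of GTL1ox was left out (0.0651 to 0.125).

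Jasmonate regulators were slightly higher where they were called. Of 3 genes measured, 2 were called higher and 0 lower, beside 13.1% and 7.42% of all probe sets, and 1 was dim on all 6 arrays. MYC4 was higher by 0.90 ± 0.12 (adjusted p = 0.000165) and MYC3 by 0.56 ± 0.15 (adjusted p = 0.0147). MYC3 was at 6.06, 6.08 and 6.16 in GTL1ox, 5.22, 5.60 and 5.80 in DF1ox and 5.81, 6.18 and 5.93 in WT, so that DF1ox was the lower line. The call on MYC3 was lost without replicate 1 of DF1ox (0.0600), without replicate 3 of GTL1ox (0.0519) and after quantile normalization (0.109). It was also lost in the fit of only the 6 arrays (0.116) and of the 9 arrays with WT (0.0716). OPCL1, an enzyme of jasmonate synthesis outside that list, was at 8.01, 7.60 and 7.40 in GTL1ox, 5.56, 5.84 and 5.88 in DF1ox and 5.93, 5.84 and 6.34 in WT, a rise of 1.91 ± 0.16 (adjusted p = 3.01e-06).

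The bHLH family held 4 calls higher and 1 lower among 10 members measured, beside 13.1% and 7.42% of all probe sets. The call on bHLH104 (0.32) was lost in the fit of only the 6 arrays (adjusted p = 0.103) and of the 9 arrays with WT (0.0706). It was also lost after centring on the medians (0.0592) and without replicate 1 of DF1ox (0.0754) or replicate 1 or 3 of GTL1ox (0.0896 and 0.0586). That on AT1G22490 (-0.42) was lost in the fit of only the 6 arrays (0.0868). The largest rise was in bHLH34, at 8.32, 8.16 and 8.41 in GTL1ox, 6.49, 6.42 and 6.29 in DF1ox and 6.69, 6.69 and 6.04 in WT (difference 1.89 ± 0.18, adjusted p = 6.26e-06). Of the root hair bHLH factors, 0 could be matched by name. Of 22 bZIP factors, 5 were called higher and 4 lower, beside 13.1% and 7.42% of all probe sets. BZIP17 and BZIP28, which are released from the endoplasmic reticulum membrane when proteins misfold, were higher in GTL1ox by 1.51 ± 0.14 and 0.72 ± 0.07 (adjusted p = 7.79e-06 and 1.11e-05). BZIP17 was at 5.16, 5.69 and 5.45 in GTL1ox, 3.78, 4.06 and 3.91 in DF1ox and 4.06, 3.68 and 4.11 in WT, with DF1ox and WT alike in range. On the other side AT4G38900 (bZIP29) and bZIP44 each differed by -1.28.

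Genes of membrane traffic were mostly higher where called, by small amounts. Of 26 measured, 8 rose and 1 fell, against 13.1% and 7.42% of all probe sets. The outlying rise was AT1G18830, annotated as SEC31A, a subunit of the coat of vesicles that leave the endoplasmic reticulum, at 6.42, 5.49 and 6.05 in GTL1ox, 3.13, 2.94 and 3.13 in DF1ox and 2.59 ± 0.35 in WT (mean and SD, n = 3), a difference of at least 2.92 (adjusted p = 3.09e-05). The exocyst subunits EXO84B and SEC5A, which tether vesicles at the plasma membrane, rose by 0.32 and 0.33, and the endosomal sorting subunits VPS20.1 and VPS22 by 0.36 and 0.64. The call on VPS22 was lost in the fit of only the 6 arrays (adjusted p = 0.0716). KEU, a regulator of membrane fusion, fell by 0.30 (adjusted p = 0.0126, but 0.0860 in the fit of only the 6 arrays, 0.0572 without replicate 2 of DF1ox and 0.0615 without replicate 3 of GTL1ox). The call on SEC5A was lost without replicate 2 of DF1ox (0.0950) and without replicate 2 or 3 of GTL1ox (0.0755 and 0.0544). After centring on the medians, which moved the median difference of all probe sets to -0.04, SEC5A was not called (0.0745).

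In the group of ubiquitin conjugation and removal, 8 of 34 were called higher and 3 lower, beside 13.1% and 7.42% of all probe sets. The largest was UBP18, a protease that removes ubiquitin from proteins, at 5.07, 4.43 and 4.83 in GTL1ox, 2.74, 3.04 and 3.26 in DF1ox and 3.06, 2.91 and 3.13 in WT (difference 1.76 ± 0.20, adjusted p = 3.75e-05). PUB49 rose by 1.33 and UBC37 by 1.17, the call on UBC37 being lost in the fit of only the 6 arrays (adjusted p = 0.0508). The falls were PUB23, a ubiquitin ligase that dampens immune responses, at 8.66, 8.72 and 8.27 in GTL1ox, 10.03, 9.88 and 10.03 in DF1ox and 9.75, 10.43 and 10.10 in WT, and the conjugating enzymes UBC16 (-1.18) and UBC18 (-1.14). Of 9 ATG8 genes, which mark autophagosomes, ATG8E and ATG8H were each lower by 0.98 and 0 were higher (22.2% called, beside 20.5% of all probe sets).

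UDP-glycosyltransferases, which attach sugars to hormones and secondary metabolites, were called in equal numbers, 7 higher and 7 lower of 51 (27.5%, beside 20.5% of all probe sets). UGT73B4 was at 9.18, 8.52 and 8.90 in GTL1ox, 6.04, 6.22 and 6.13 in DF1ox and 5.18, 5.59 and 5.70 in WT, a rise of 2.74 ± 0.28 (adjusted p = 1.36e-05). UGT72E2, which glycosylates phenylpropanoids, fell by 1.77 ± 0.13, at 7.77, 7.97 and 7.79 in GTL1ox, 9.48, 9.73 and 9.63 in DF1ox and 10.13, 10.18 and 9.89 in WT. UGT73B1 fell by 1.68 ± 0.26, with 2 of its 3 WT arrays, at 4.32 each, within the range of GTL1ox, 3.97 to 4.35. Of 22 beta-glucosidases, which remove sugars, 1 was called higher and 3 lower (18.2%, beside 20.5% of all probe sets). BGLU15 and BGLU16 fell by 1.33 and 1.31, and PYK10, the main enzyme of endoplasmic reticulum bodies in roots, by 0.60. BGLU41 was higher by 0.39, with overlapping arrays, and was not called in the fit of only the 6 arrays (adjusted p = 0.318) or when any of them except replicate 3 of GTL1ox was left out (0.0608 to 0.105).

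**Figure D3:**
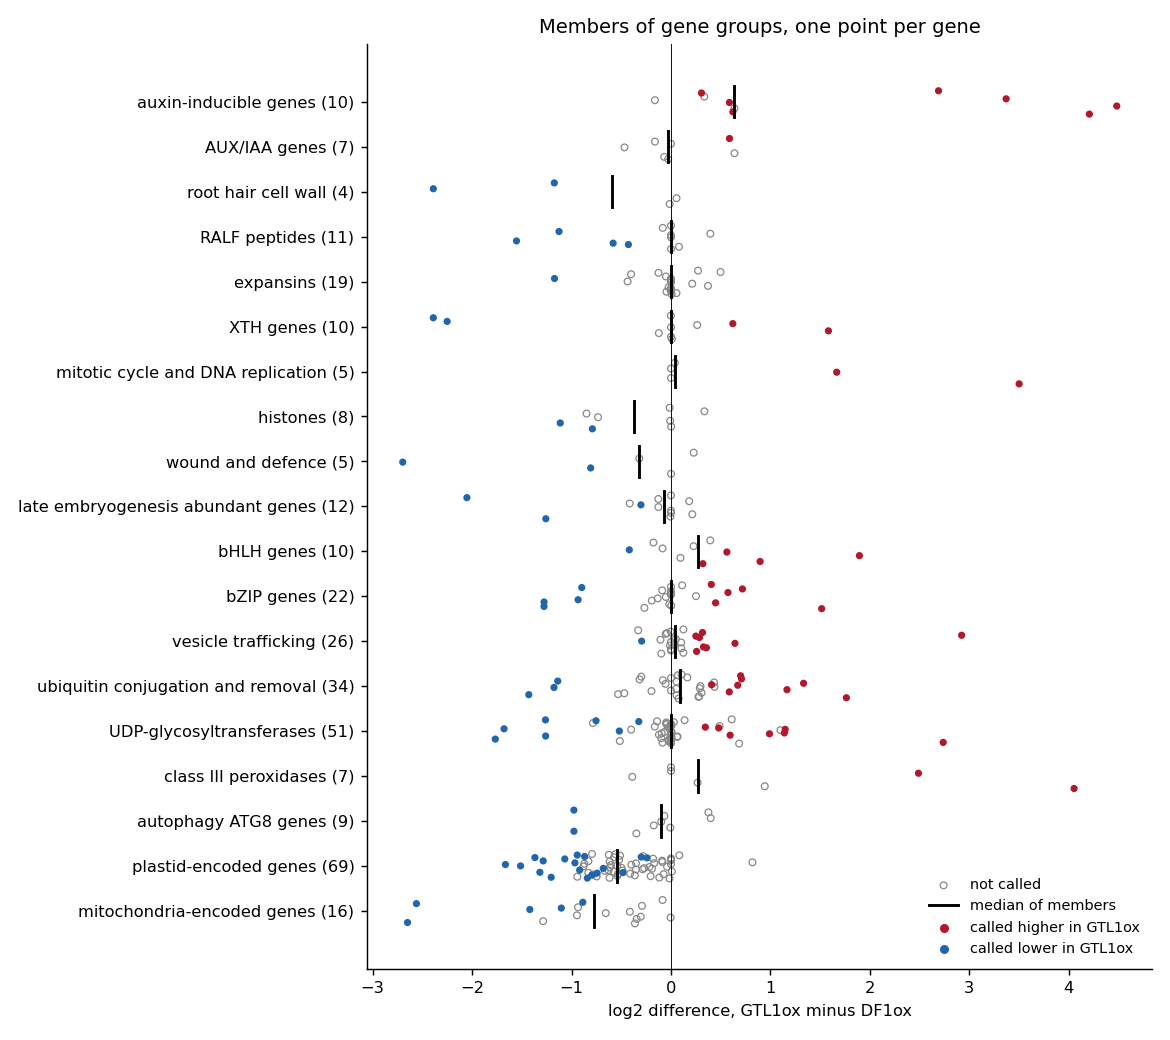
Log2 difference, GTL1ox minus DF1ox (horizontal axis), of the members of 19 gene groups, 1 point a gene and the number measured in brackets. Red points were called higher and blue points lower in GTL1ox, open points were not called, and the black bar is the median. Auxin-inducible genes reach 4.48 on the right, and called organelle-encoded genes all lie left of 0.

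Organelle-encoded genes were lower in GTL1ox where they were called, a pair of groups added after values were seen. Of 69 genes of the plastid genome 18 were called lower and 0 higher, with a median of -0.54, and of 16 mitochondrial genes 5 were called lower and 0 higher, with a median of -0.77. Over all probe sets 7.42% were lower and 13.1% higher, with a median of 0.00. Of the plastid calls, ndhD, rpoC1 and rps4 were lost in the fit of only the 6 arrays (adjusted p of 0.0589, 0.118 and 0.0624). The call on rps4 was also lost without replicate 1 or 2 of DF1ox (0.0545 and 0.0762) or replicate 1 of GTL1ox (0.0871). That on rpoC1 was also lost without replicate 2 of DF1ox (0.0520). Of the 5 mitochondrial calls, nad7 was lost in the fit of only the 6 arrays (adjusted p = 0.264), without replicate 3 of DF1ox (0.157) and without replicate 2 or 3 of GTL1ox (0.104 and 0.148), and with the replicate block (0.0550), and nad6 without replicate 2 of DF1ox (0.0683). Averaged over the 16 mitochondrial genes, the level was 4.97, 4.93 and 4.94 in the GTL1ox arrays, 5.80, 6.02 and 5.69 in the DF1ox arrays and 6.13, 5.47 and 5.46 in the WT arrays. GTL1ox lay below every array of the other lines there. Averaged over the 69 plastid genes, it was 5.30, 5.59 and 5.37 in GTL1ox, 6.01, 6.11 and 5.73 in DF1ox and 5.90, 5.41 and 5.55 in WT, so that the overexpressors did not overlap while WT overlapped GTL1ox. cox2, a subunit of cytochrome oxidase, was at 6.02, 6.31 and 6.67 in GTL1ox, 7.79, 8.07 and 7.38 in DF1ox and 7.86, 7.17 and 7.20 in WT (difference -1.42 ± 0.24, adjusted p = 0.000878). nad2, a subunit of respiratory complex I, was dim in GTL1ox at 2.55, 2.45 and 2.49, against 4.78, 5.12 and 5.54 in DF1ox and 3.14, 2.50 and 2.47 in WT. Of the plastid genes, petA, a cytochrome gene, fell by 1.37 (not called in the fit of the 9 arrays with WT, adjusted p = 0.0562) and rpl20, a ribosomal protein gene, by 1.51. The added control transcripts and the 3′ to 5′ difference, which also separated the lines, are given with the array values, and their part in the organelle genes was not tested.

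**Figure D4:**
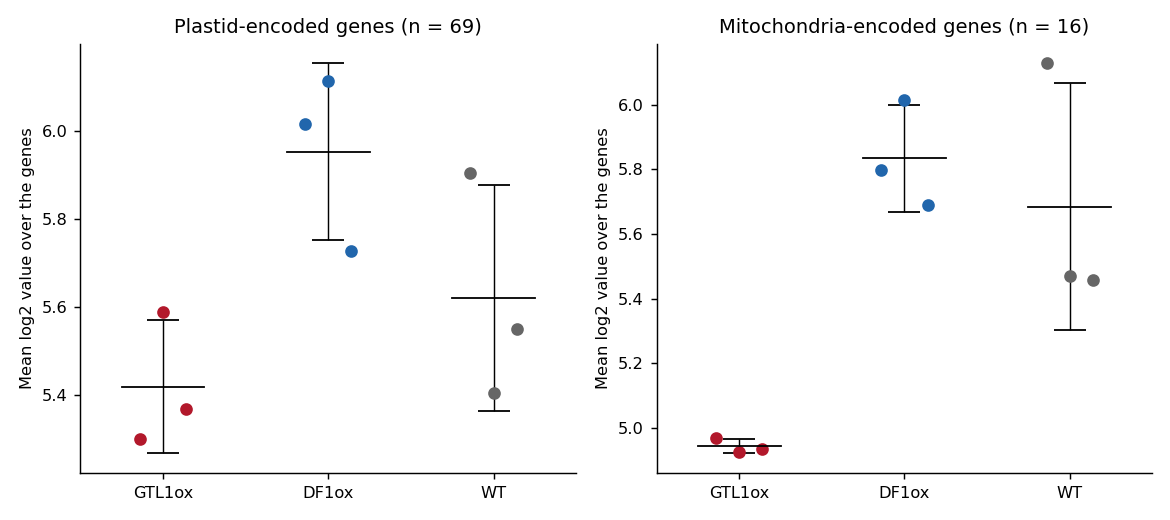
Mean log2 value over 69 plastid-encoded genes (left) and 16 mitochondria-encoded genes (right) on each array of GTL1ox, DF1ox and WT, with the mean and SD of 3 arrays. The GTL1ox arrays lie below all DF1ox arrays in both panels, and below all WT arrays for the mitochondrial genes alone.

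Which of the overexpressors departed from WT was described, without a test, by the position of the WT mean between them. WT lay nearer DF1ox for 769 of the 811 probe sets more than 2-fold higher in GTL1ox (94.8%) and for 542 of the 660 more than 2-fold lower (82.1%), beside 66.2% of the 12365 probe sets that were not dim on all arrays of the lines. On a scale with 0 at the DF1ox mean and 1 at the GTL1ox mean, the median position of WT was -0.03 for the higher and -0.05 for the lower probe sets. WT lay past DF1ox, on the side away from GTL1ox, for 461 of the higher and 354 of the lower probe sets, so that for these the mean of DF1ox fell between WT and GTL1ox, as for GH3.3, GH3.1, EXO, SIM, RALFL27 and TBL28. Across all probe sets, GTL1ox correlated with WT at 0.959 to 0.977 and DF1ox with WT at 0.978 to 0.991. Replicate 3 of WT had a higher median over probe sets than the other WT arrays (3.22, against 3.05 and 3.03). Without it the shares were 95.8% and 82.6%.

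**Figure D5:**
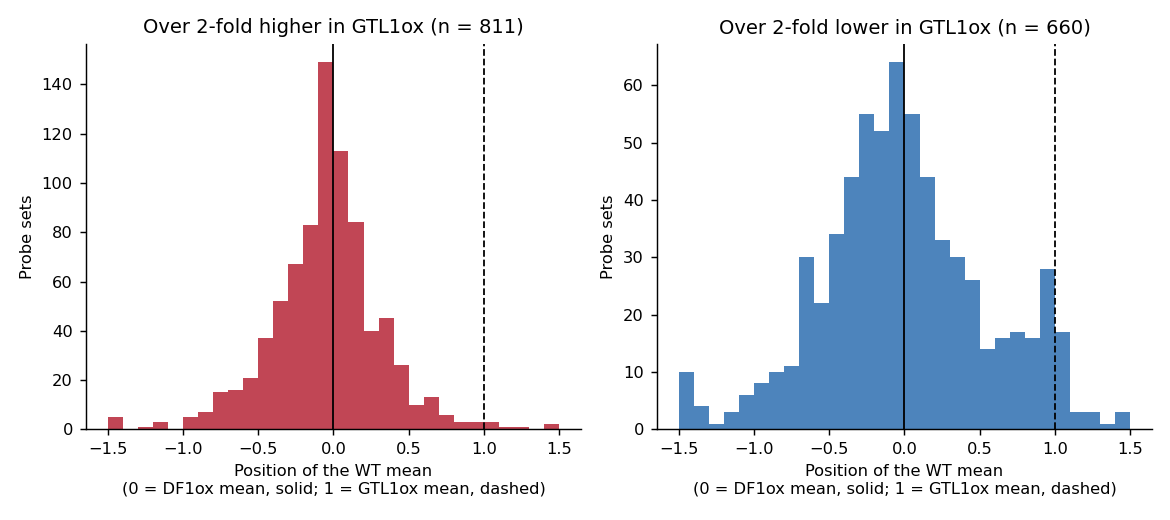
Number of probe sets (vertical axis) by the position of the WT mean, for those more than 2-fold higher (left, 811) and lower (right, 660) in GTL1ox than in DF1ox. On the horizontal axis 0 is the DF1ox mean and 1 the GTL1ox mean, and values beyond -1.5 or 1.5 are drawn in the end bars. The bulk lies around 0, with a smaller group near 1 among the lower probe sets.

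A smaller set had WT nearer GTL1ox than DF1ox: 42 of the higher and 118 of the lower probe sets. In 7 and 25 of these WT lay beyond GTL1ox, as in LEA4-5, where WT was the line below both overexpressors. Among the genes with a symbol they were 4 of 67 higher and 19 of 67 lower, with DF1, the gene that DF1ox overexpresses, among the lower ones. The organelle genes petA, nad2, rps15, rpl20, matK, ccb382 and rpoC1 were also among the lower ones. scpl48, a serine carboxypeptidase-like gene, was at 5.52, 5.69 and 6.09 in GTL1ox, 8.02, 8.16 and 8.66 in DF1ox and 5.62, 6.06 and 6.62 in WT (difference -2.51 ± 0.31, adjusted p = 8.09e-05). tny, the AP2/ERF factor TINY that restrains growth when overexpressed, was at 8.45, 8.54 and 8.56 in GTL1ox, 10.16, 10.29 and 10.36 in DF1ox and 8.93, 8.65 and 8.35 in WT (difference -1.76 ± 0.15, adjusted p = 2.36e-06). In both genes WT overlapped GTL1ox, and DF1ox stood above. CLE27, a gene for a secreted signal peptide, was at 2.98, 2.92 and 2.79 in GTL1ox, 4.97, 4.89 and 4.42 in DF1ox and 3.02, 2.83 and 3.62 in WT, lower in GTL1ox than in DF1ox by at least 1.87. NCRK, a receptor-like kinase, was at 2.23, 2.24 and 2.23 in GTL1ox, 3.81, 4.57 and 4.71 in DF1ox and 2.64, 2.23 and 2.23 in WT, with a difference of at least 2.13. TUB7 and UGT74B1 were among the 4 higher genes of this kind, with WT nearer GTL1ox than DF1ox.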

How the data were processed

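The deposited values are log2 signals of ATH1 arrays that the authors made by gcRMA normalization, per the labels, with no version or settings given in the sources used here. They were used as deposited. All 18 columns were matched to samples by title, and 0 columns of no sample were used. Of 22810 probe sets, 64 Affymetrix controls were left out. The labels name two-cycle labelling for some arrays by raw file numbers that were not matched to samples here.

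Names came from GEO's platform annotation, updated through the TAIR10.1 gene table: 13513 had 1 gene, 503 several and 8730 none. The symbols DF1 and ZAT10 were assigned by hand from their loci, AT1G76880 and AT1G27730, and GTL1 and RSL4 were not. Of those with 1 gene, 1629 carried a symbol beyond the locus. A list member is the brightest probe set of its gene.

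In limma 3.58.1 (R 4.3.3), all 18 arrays were fitted with a mean for each genotype, so that the 6 genotypes shared the spread, with the contrast GTL1ox minus DF1ox, eBayes without a trend, two-sided tests and the Benjamini-Hochberg adjustment over 22746 probe sets (threshold 0.05). Errors of differences are moderated SEs. The script was tested on simulated data. Alternatives were other normalizations, filters, moderations and subsets of arrays (16 in all, the one without replicate 3 of WT added after the data were seen).

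Named genes are the 12 largest differences in each direction among probe sets with 1 gene, called and without overlap, DF1 and EXPA7, and up to 6 members of each list. The 25 largest with a symbol in each direction were added after values were seen. Of 89 lists, 66 had a measured member. The lists and members were chosen with earlier results of these data known, and 17 lists (among them the organelle, histone, bZIP, ubiquitin, ATG8, TBL, SWEET and beta-glucosidase groups) were added after values of this comparison were seen. Counts and medians describe a list, and no test was run on it. Other steps used Python 3.11.15 with pandas 2.3.3, and matplotlib 3.10.9 for plots.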

Additional observations from a re-analysis of the deposited data

How the results depend on the processing

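In none of the 16 alternatives did a probe set called both there and in the reported fit change direction. Probe sets called in only 1 of the fits were not compared in this way. Several alternatives altered only the estimate of the spread or the arrays of other genotypes. In those the difference between the lines was the same by construction, so that its direction could not change. The count of 4667 was 3167 in the fit of only the 6 arrays, of which 2828 were also called in the reported fit, and there the count higher in GTL1ox was 1927 in place of 2980. With the call rule set to more than 2-fold it was 1471. It was 3336 with the 9 arrays of GTL1ox, DF1ox and WT, 3811 to 4229 when 1 of the 6 arrays was left out, 4534 with the replicate number as a block, and between 4251 and 5142 in the others. The replicate numbers are shared by label only: deviations of same-numbered arrays correlated at -0.03, 0.02 and 0.06. Of 303 named genes, 163 were called, and 117 of these were called in every alternative that tested them. Precision is limited by 3 arrays a line and by the many values near the lowest signal, where 244 called probe sets were dim on all 6 arrays.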

Other observations

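Of 5818 pairs of measured genes that neighbour each other in the gene table, 38 had both members called and changed by more than 2-fold. Of these, 29 changed in the same direction, 20 higher and 9 lower in GTL1ox. Over all probe sets 6.47% were called and changed by more than 2-fold, 3.57% higher and 2.9% lower. The number of such pairs among genes that vary independently was not worked out, so the counts are a description only.

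Further families were listed by symbol after values were seen, beside 20.5% called over all probe sets. Of 42 MADS-box genes AGL30 alone was called (2.38%), higher by 0.94, but 36 of the 42 were dim on all 6 arrays, beside 47.8% of all probe sets. Of 15 glycosyl hydrolases of family 9 (13.3% called), 10 were dim on all 6 arrays. Among them all, GH9B5 was higher by 0.86, and GH9B17 was called higher but not in the fit of only the 6 arrays (adjusted p = 0.0876). Of 11 PRA1 genes, which act in membrane traffic, 3 were lower and 0 higher (27.3%). The NET proteins, which bind actin to membranes, held 1 rise, NET1B at 5.76 ± 0.44 in GTL1ox, 4.08 ± 0.30 in DF1ox and 3.70 ± 0.09 in WT (mean and SD, n = 3), and 1 fall, NET4B by 1.07, among 10 (20.0%). The call on NET4B was lost in the fit of only the 6 arrays (adjusted p = 0.0558). The 3 housekeeping genes were not called.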
